A study of Homo sapiens with 7 samples.

Results

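The genes of the cytosolic ribosomal proteins were examined for CTCF peaks in K562 cells, with and without the G4 ligand pyridostatin (PDS). Members were the protein-coding genes of chromosomes 1 to 22 whose symbol is RPL or RPS followed by a number, with or without the letter A, together with RPLP0, RPLP1, RPLP2 and RPSA. This rule, which uses symbols and no measured value, gave 73 of the 19229 coding genes on these chromosomes, 43 for the large and 30 for the small ribosomal subunit. The other 19156 coding genes served as background. K562 is an established human erythroleukemia line, and PDS is a small molecule that stabilizes G-quadruplexes (G4s), folded structures that guanine-rich DNA can form. CTCF-bound chromatin, cut enzymatically, was immunoprecipitated and sequenced (ChIP-seq) in 7 samples of this line grown in RPMI-1640 medium, listed in the labels with 0.4% fetal bovine serum. Control cells, labelled untreated, gave 2 CTCF samples and 1 sample precipitated with nonspecific IgG, and cells given 10 μM PDS for 24 h gave 2 CTCF and 2 IgG samples.

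The deposited values were 2 peak lists, 33094 peaks for control cells and 32917 for PDS-treated cells, each called once on both CTCF replicates. Every peak came with a fold enrichment over the IgG of its own condition and a p-value. No value per replicate and no read count was listed, so no SD, no depth and no test between the conditions can be given, and the shares below carry a Wilson 95% interval that covers counting error only. Median folds differed between the lists (26.5 for control and 16.7 for PDS-treated cells), so strength was compared as a percentile within a list, where 100 is the strongest peak. All positions are on GRCh37, the sequence of the hg19 build that the authors used. A start peak is a peak whose centre lies within 1 kb of the annotated gene start.

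A cytosolic ribosome joins a small subunit, which reads the mRNA, to a large subunit, which links amino acids into the growing chain. Its proteins are needed in matched amounts and in great numbers in dividing cells, so their genes, scattered over most chromosomes, are among the most actively transcribed. Transcription of these genes typically begins inside a run of pyrimidines, which leaves a terminal oligopyrimidine tract on the mRNA through which translation is controlled by growth signals. Many of these genes also hold small nucleolar RNAs (snoRNAs), which guide the modification of ribosomal RNA, in their introns. CTCF is a zinc finger protein known for insulating domains and anchoring chromatin loops, and it also binds near the starts of active genes.

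Stretches of the start peaks that carry the CTCF consensus or a G4 motif were taken first, because the comparison with PDS concerns these elements. The CTCF consensus was the ChIP-exo consensus named in the study's introduction, searched on both strands. Among the start peaks of ribosomal protein genes it occurred without a mismatch in RPLP0 and in RPL5. RPLP0 forms the base of the stalk through which the large subunit recruits translation factors, and its site lay inside the peak of both lists, at -108 bp from the gene start (negative distances are upstream). RPL5 binds 5S ribosomal RNA together with RPL11, and its site lay at 385 bp, in both peaks but outside the central 200 bp of either. RPS3A and RPS15, both of the small subunit, had a site with 1 mismatch at -103 and -114 bp. The site is in capitals, with 20 bases on either side, on the strand that reads the consensus, which is minus for chr12:120639119-120639173, chr1:93297928-93297982 and chr4:152020646-152020700 and plus for chr19:1438216-1438270.
RPLP0: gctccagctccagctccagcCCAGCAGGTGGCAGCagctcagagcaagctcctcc
RPL5: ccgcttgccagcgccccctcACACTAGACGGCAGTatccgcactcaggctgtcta
RPS3A, with 1 mismatch: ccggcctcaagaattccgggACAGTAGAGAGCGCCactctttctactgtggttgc
RPS15, with 1 mismatch: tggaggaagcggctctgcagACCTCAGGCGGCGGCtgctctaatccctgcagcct

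A G4 motif required 4 runs of at least 3 guanines, separated by 1 to 7 nt, and both strands were searched. The motifs of 3 peaks that carry it in both lists are shown for comparison with each other. RPS26 encodes a small subunit protein at the exit of the mRNA channel, and its motif lay at 363 bp from the gene start, in an intron of the outermost transcript. RPL10A encodes the protein of the mobile stalk by which spent tRNA leaves, and its motif lay at -350 bp. RPL6, whose motif lay at -470 bp from the outermost start, encodes another large subunit protein. The motif is in capitals with 15 bases on either side, on the G-rich strand, which is plus for chr12:56435470-56435527 and chr6:35435800-35435856 and minus for chr12:112857083-112857142.
RPS26: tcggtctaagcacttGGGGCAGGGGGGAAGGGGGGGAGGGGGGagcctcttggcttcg
RPL10A: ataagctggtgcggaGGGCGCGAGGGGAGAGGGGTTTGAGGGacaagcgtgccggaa
RPL6: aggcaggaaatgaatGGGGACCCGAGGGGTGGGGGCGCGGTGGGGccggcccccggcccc

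RPL11, the partner of RPL5 in binding ribosomal RNA, is shown for contrast as a gene whose start peak held neither a consensus nor a G4 motif in either list. The 200 bases at the centre of the stretch common to both of its peaks, chr1:24018046-24018245 on the plus strand, span -186 to 13 bp from the gene start and hold neither element, so no base is in capitals.
RPL11: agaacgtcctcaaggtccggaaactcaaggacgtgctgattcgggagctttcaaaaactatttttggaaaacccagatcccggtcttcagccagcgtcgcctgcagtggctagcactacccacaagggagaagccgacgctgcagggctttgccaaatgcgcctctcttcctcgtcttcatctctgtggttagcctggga

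Most members carried the pyrimidine run at their start. The hexamer TCTTTC, or a variant of it with C as the first base, T as the last base or both, was searched on the gene strand within 50 bp of the annotated start. It was found in 40 of the 73 genes (54.8%) against 11.1% of the other coding genes. At the start of the canonical transcript, which differs from the outermost annotated start for some genes, it was found in 60 genes (82.2%) against 9.87%. The examples run from 25 bp before to 25 bp after the canonical start, which is base 26, with the hexamer in capitals, on the strand of the gene. They belong to RPL5 (chr1:93297572-93297622, plus), RPSA (chr3:39448186-39448236, plus), RPS3A (chr4:152020755-152020805, plus), RPL10A (chr6:35436153-35436203, plus), RPS14 (chr5:149829277-149829327, minus) and RPS19 (chr19:42364300-42364350, plus).
RPL5: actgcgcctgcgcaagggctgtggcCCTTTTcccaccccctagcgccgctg
RPSA: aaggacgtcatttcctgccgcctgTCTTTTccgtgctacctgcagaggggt
RPS3A: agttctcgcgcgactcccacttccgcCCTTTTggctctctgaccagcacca
RPL10A: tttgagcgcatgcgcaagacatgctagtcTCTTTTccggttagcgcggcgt
RPS14: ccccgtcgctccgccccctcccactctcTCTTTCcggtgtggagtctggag
RPS19: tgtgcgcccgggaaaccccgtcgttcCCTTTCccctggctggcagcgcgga

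Ribosomal protein genes had a CTCF peak at the start more often than other coding genes in both lists. In control cells, 26 of 73 (35.6%, interval 25.6 to 47.1) had a start peak, against 21.4% of the other coding genes. In PDS-treated cells, 24 of 73 (32.9%, interval 23.2 to 44.3) had a start peak, against 20.1%. The same 22 genes (30.1%, interval 20.8 to 41.4) had a start peak in both lists, against 18.4% of the other coding genes. A start peak in the control list alone was found at 4 genes (5.48%, against 2.99%), RPL24, RPS10, RPS28 and RPS3. A start peak in the PDS list alone was found at 2 genes (2.74%, against 1.76%), RPL9 and RPS2. Thus 28 genes had a start peak in at least a single list and 45 had none. Large subunit genes had a start peak in 16 of 43 cases in each list (37.2%), and small subunit genes in 10 of 30 in control cells (33.3%) and 8 of 30 in PDS-treated cells (26.7%).

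No peak of either list lay at the start or elsewhere in the gene at 34 members (46.6%, interval 35.6 to 57.9), close to the 44.3% of other coding genes. The 18 for the large subunit were RPL12, RPL13, RPL14, RPL17, RPL18, RPL19, RPL21, RPL23, RPL28, RPL29, RPL34, RPL35A, RPL37, RPL41, RPL7A and RPL8, with RPLP1 and RPLP2, the acidic proteins that complete the stalk on RPLP0. Among the 16 for the small subunit were RPS12, RPS13, RPS15A, RPS16, RPS18, RPS21, RPS23, RPS25, RPS27, RPS27A, RPS6 and RPS7. RPS6, the substrate of the S6 kinases, was thus among the genes without a listed peak. The lists hold called peaks only, so an unlisted start may still have had CTCF signal that was not called. Another 11 members (15.1%, against 32.5% of other coding genes) had a peak in the gene body but none at the start.

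**Figure D1:**
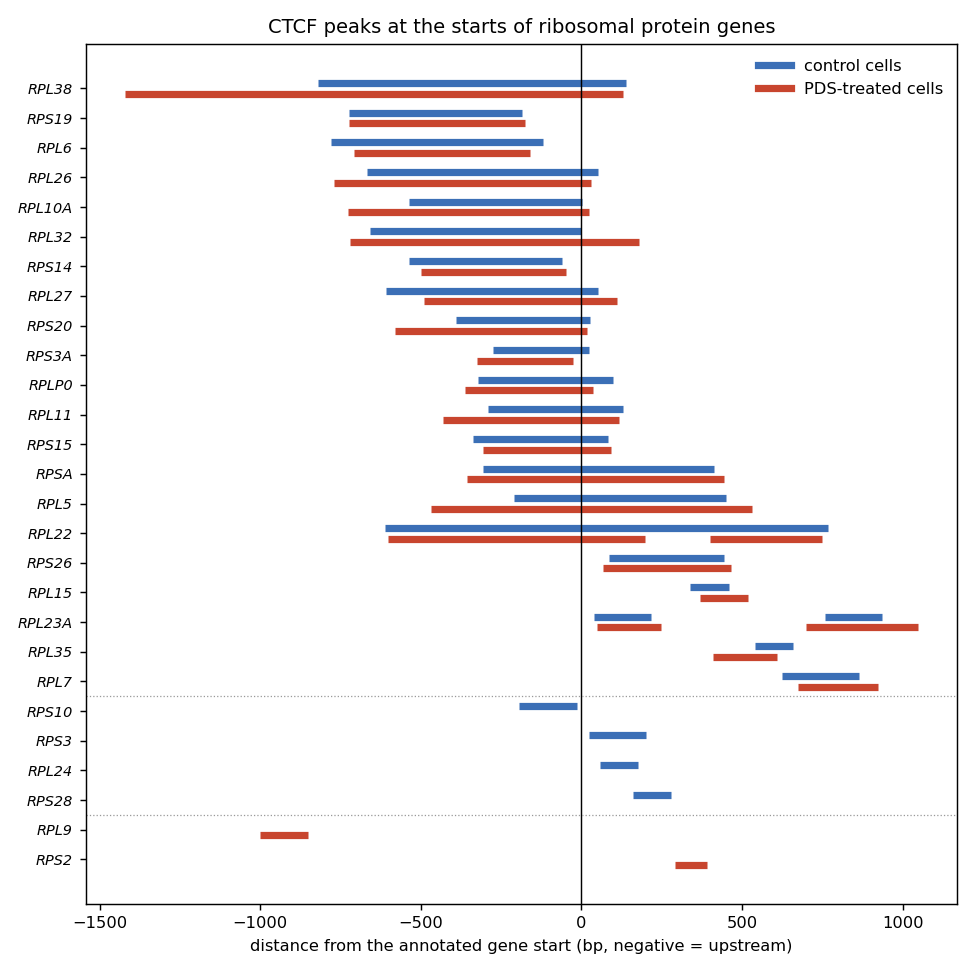
Spans of the start peaks of 27 ribosomal protein genes, as distance from the annotated gene start in bp (x axis, negative is upstream), for control cells (blue) and PDS-treated cells (red), 1 row per gene. The 21 genes shown with a start peak in both lists are on top, then the 4 with a peak in the control list alone and the 2 with a peak in the PDS list alone, whose peaks were 100 to 180 bp wide.

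The share was also compared with other genes of the translation machinery, counted by the same rule. Mitochondrial ribosomal protein genes, whose products make the separate ribosome of the mitochondrion, had a start peak in 29 of 78 cases in control cells (37.2%) and 24 of 78 in PDS-treated cells (30.8%). Translation factor genes had one in 20 of 64 (31.2%) and 18 of 64 (28.1%) cases, and ribosome biogenesis genes in 17 of 53 (32.1%) and 15 of 53 (28.3%) cases. Genes of other mRNAs with a terminal oligopyrimidine tract had one in 6 of 18 cases in each list (33.3%), with 3 genes, EEF1D, EEF2 and EIF3H, also counted as translation factors. Genes of cytosolic tRNA synthetases had one in 3 of 20 cases in each list (15.0%). The intervals of all these lists overlapped that of the cytosolic ribosomal protein genes. Paralogs with an L in the symbol had one in 3 of 8 cases in each list. FAU and RACK1, which encode ribosomal proteins under other names, had none in either list (0 of 2), which is too few genes to limit the share.

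**Figure D2:**
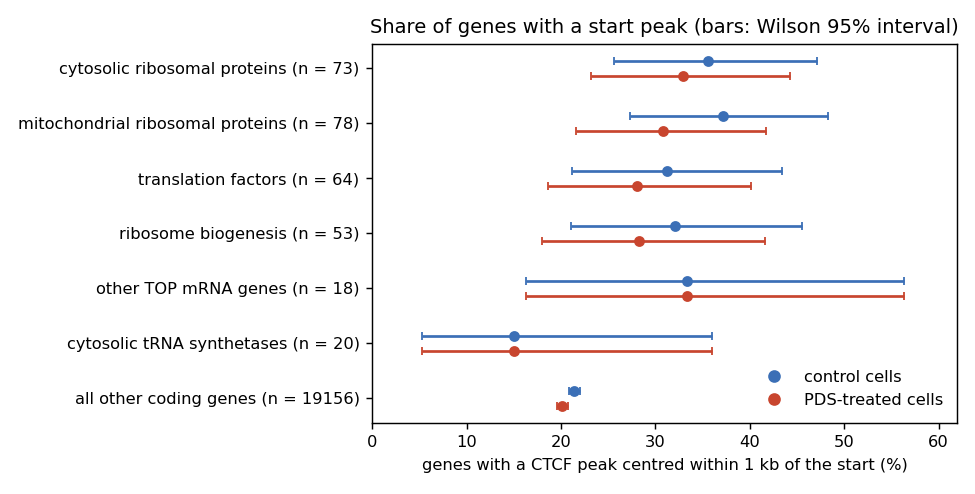
Share of genes with a CTCF peak centred within 1 kb of the start, in percent (x axis), for 6 gene lists and all other coding genes, in control (blue) and PDS-treated cells (red). Points are shares and bars are Wilson 95% intervals; the cytosolic ribosomal proteins stood at 35.6% and 32.9%, above the 21.4% and 20.1% of all other coding genes, and the bars of the 6 lists overlapped.

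Start peaks of ribosomal protein genes were centred further upstream than those of other genes, while the share centred upstream at all differed little. That share was 15 of 27 in control cells (55.6%, against 51.3% in other genes) and 16 of 26 in PDS-treated cells (61.5%, against 52.0%). The median centre of the 27 control peaks was at -104 bp, against -10.5 bp for 3886 peaks of other genes, and that of the 26 PDS peaks at -169 bp, against -22.5 bp for 3723 peaks. Centres between 100 and 500 bp upstream made up 14 of 27 control peaks (51.9%, against 27.2% in other genes) and 14 of 26 PDS peaks (53.8%, against 28.3%). Such centres were not particular to members. Among mitochondrial ribosomal protein genes, MRPL17 had them at -219 bp (control) and -304 bp (PDS), and MRPL41 at -370 and -380 bp. The centres at MRPL42 lay downstream, at 161 and 261 bp. Position was not compared between members and the related gene lists as a whole. A peak covered the start itself at 13 members in control cells (17.8%, against 9.31% of other coding genes) and 12 in PDS-treated cells (16.4%, against 8.26%). Start peaks of members were also wider, with a median of 420 bp in control cells, against 360 bp, and 500 bp in PDS-treated cells, against 350 bp. Where a peak of a member lay can be given only to the step of its list, 60 bp for control and 50 bp for PDS-treated cells.

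**Figure D3:**
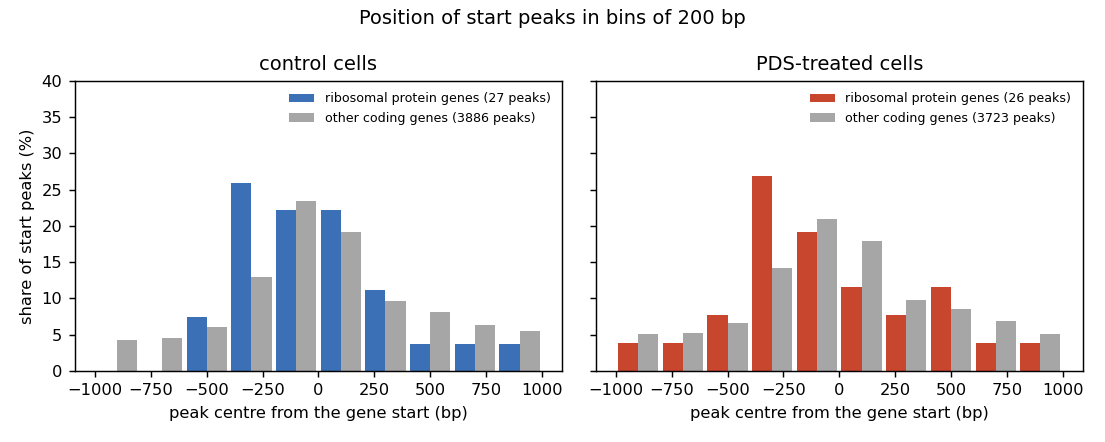
Share of start peaks (y axis, percent) by distance of the peak centre from the gene start (x axis, bp, bins of 200 bp), for ribosomal protein genes (coloured) and other coding genes (grey), in control cells (left) and PDS-treated cells (right). The bin from -400 to -200 bp held 25.9% and 26.9% of the peaks of ribosomal protein genes and 12.9% and 14.2% of those of other genes.

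The strongest start peaks belonged to genes of both subunits. In the PDS list the highest was that of RPLP0, the stalk protein whose consensus site is shown above. Its peak at chr12:120639001-120639400 had an 80.8-fold enrichment, rank 19 of 32917, and the overlapping control peak at chr12:120638941-120639360 had 31.7-fold, rank 11768 of 33094. The RPLP0 peak thus stood near the top of the PDS list by fold but far from it in the control list, at the 64.4 percentile. RPS3A, a small subunit gene, behaved likewise, with 57.2-fold (rank 129) in PDS-treated and 31.6-fold (rank 11915) in control cells. RPSA, the small subunit protein also known as the laminin receptor, had 32.8-fold (rank 2120) in PDS-treated and 30.0-fold (rank 13135) in control cells. These 3 genes had the largest gains in fold percentile from the control to the PDS list, 35.5 for RPLP0, 35.6 for RPS3A and 33.3 for RPSA. Ordered by p-value, however, the changes of the same peaks were -7.35, -8.17 and -0.31 percentile points.

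RPS26, RPS20, RPL10A and RPS15 ranked high in both lists. The RPS26 peak had 81.0-fold (rank 644) and 36.0-fold (rank 1415), and its centre was at 266 bp in both lists, which is -301 bp from the start of the canonical transcript. RPS20, a protein of the small subunit head, had 79.9-fold (rank 690) in control and 32.7-fold (rank 2125) in PDS-treated cells. RPL10A had 63.5-fold (rank 1764) and 32.7-fold (rank 2131), with the peak centred at -267 bp in control and -352 bp in PDS-treated cells. RPS15, which acts late in small subunit assembly, had 52.7-fold (rank 3286) and 30.9-fold (rank 2673). Its control peak stood at the 99.1 percentile by p-value, the highest of any start peak of the set.

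RPL26 and RPL38 were strong in the control list by fold and lower in the PDS list, whereas RPL11 changed little. RPL26, a large subunit protein near the exit of the peptide tunnel, had 75.8-fold (rank 874) in control and 23.9-fold (rank 6806) in PDS-treated cells. RPL38, a large subunit protein known for its part in the translation of Hox mRNAs, had 58.9-fold (rank 2281) and 20.3-fold (rank 10705). Its PDS peak was the widest start peak of the set, 1550 bp against 960 bp in control cells. RPL11, the partner of RPL5, had 58.4-fold (rank 2356) in control and 28.4-fold (rank 3758) in PDS-treated cells, a change in percentile of -4.30 by fold and 5.11 by p-value. RPL5 itself went from 37.3-fold (rank 8241) to 29.5-fold (rank 3201), a change in percentile of 15.2 by fold and -5.76 by p-value. Both RPL5 and RPL11 peaks covered the gene start in both lists. The change of RPL26 in percentile was -18.0 by fold and 10.1 by p-value, and that of RPL38 was -25.6 and -2.98.

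RPS19 and RPS14 are small subunit genes known from anemias caused by loss of a gene copy. The RPS19 peak was centred at -454 bp in control cells (52.5-fold, rank 3335) and at -449 bp in PDS-treated cells (22.9-fold, rank 7694). The RPS14 peak was centred at -298 bp (29.6-fold, rank 13550) and -273 bp (22.8-fold, rank 7740). The change in percentile was -13.3 by fold and 13.2 by p-value for RPS19, and 17.4 and 10.2 for RPS14. Neither peak reached the start, and their centres moved by 5 and 25 bp between the lists, less than a step of either list.

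The median start peak of members ranked above that of all other coding genes within each list, but high ranks were not particular to members. By fold, the median percentile was 64.4 in control cells, against 58.5 for other genes, and 76.6 in PDS-treated cells, against 39.4. By p-value, the medians were 85.9 against 60.2 and 86.5 against 67.0. The lower quartile by p-value went the other way in control cells, at 18.4 for members against 28.8 for other genes, but not in PDS-treated cells, at 68.6 against 36.9. The strongest 10% of a list by fold held 8 of the 27 control peaks of members (29.6%, against 18.4% of start peaks of other genes) and 9 of the 26 PDS peaks (34.6%, against 10.9%). At the other end, the weaker 50% by fold held 5 control peaks (18.5%, against 42.4%) and 10 PDS peaks (38.5%, against 58.3%). Related genes also ranged widely. Of the ribosome biogenesis genes, RRP9 stood at the 99.7 percentile by fold in control and 99.9 in PDS-treated cells. TSR1 stood at 61.9 and 10.2. Of the translation factor genes, EIF2S1 stood at 99.7 and 98.5, and EIF4E at 11.7 and 15.3. No median was computed for these gene lists, so members were not ranked against them. The lowest PDS fold among start peaks of members was that of RPL23A, a protein of the tunnel exit where signal recognition particle docks. This gene had 2 start peaks in each list, 1 near the start (10.3-fold in control, 5.44-fold in PDS-treated cells) and 1 further inside (29.1-fold and 11.3-fold).

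For 22 start peaks of members, a single peak of each list overlapped a single peak of the other, so that ranks could be set side by side. The median change in fold percentile from control to PDS was -1.75 for members, against -11.9 for 3092 such pairs of other genes. The percentile was higher in the PDS list for 10 of the 22 pairs of members (45.5%), against 30.5% of the others. By p-value the median change was 3.57 for members, against 4.04, and 12 of the 22 pairs were higher in the PDS list (54.5%, against 62.3%). The order by fold and the order by p-value moved the same way for 6 of the 22 pairs of members and for 1013 of the 3092 pairs of other genes, so the orders disagreed for most pairs in both sets of genes. No direction common to both orders was found for the set. The PDS peak was the wider in 16 pairs of members and the control peak in 5, whereas in other genes these counts were 1391 and 1578.

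The largest losses in fold percentile were those of RPL7, RPL32 and RPL6, all of the large subunit. RPL7 went from the 87.1 to the 6.22 percentile by fold and from 51.6 to 83.8 by p-value. RPL32 went from 84.1 to 40.7 by fold and from 76.0 to 92.5 by p-value. RPL6 went from 66.8 to 24.4 by fold and from 91.6 to 90.3 by p-value. For RPL7 and RPL32 the orders thus gave opposite changes. In the PDS list the RPL6 peak lay at -433 bp from the outermost annotated start and 921 bp from the start of PTPN11, but at -9666 bp from the canonical start. The RPL7 peak lay nearer to the start of RDH10 (389 bp in the PDS list) than to that of RPL7 (799 bp).

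**Figure D4:**
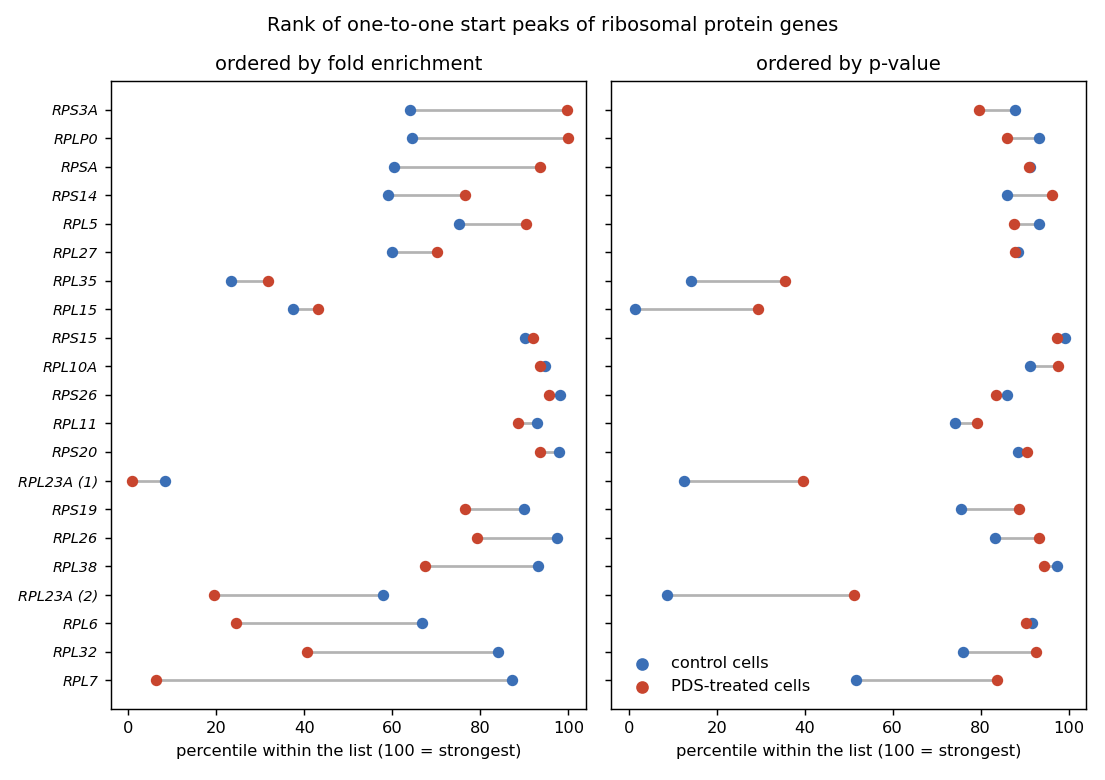
Percentile of 21 one-to-one start peaks of ribosomal protein genes within the control list (blue) and the PDS list (red), ordered by fold enrichment (left) and by p-value (right); 100 is the strongest peak, and each row is a gene (RPL23A has 2 pairs). RPS3A, RPLP0 and RPSA moved to the right by fold and slightly to the left by p-value, and RPL7 moved in the opposite directions.

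The 6 start peaks that were present in a single list were narrow and weak by p-value, as were some control peaks that had a PDS counterpart. In the control list, the RPL24 peak (chr3:101405401-101405520, exon, 8.12-fold) and the RPS28 peak (chr19:8386201-8386320, exon, 28.6-fold) were 120 bp wide, the smallest width in that list. The RPS10 peak (chr6:34393861-34394040, 27.2-fold, centred at -104 bp) and the RPS3 peak (chr11:75110581-75110760, intron, 8.43-fold) were 180 bp wide. RPL24 forms a bridge between the subunits, RPS3 and RPS10 belong to the small subunit head, and RPS28 lies near the mRNA exit. Percentiles by p-value were 14.6 for RPL24, 12.5 for RPS28, 9.37 for RPS10 and 22.2 for RPS3. The nearest PDS peaks were 6930 bp away for RPL24, 14330 bp for RPS28, 10560 bp for RPS10 and 7990 bp for RPS3. In the PDS list, the RPL9 peak (chr4:39461401-39461550, upstream, 13.9-fold) was 150 bp wide, and the RPS2 peak (chr16:2014451-2014550, exon, 14.8-fold) was 100 bp wide, the smallest width in that list. RPS2 lines the mRNA entry channel. Percentiles by p-value were 15.4 and 10.4, and the nearest control peaks were 9270 and 4870 bp away. Among control peaks with a counterpart, that of RPL15 was 120 bp wide at the 1.41 percentile by p-value and that of RPL35 was 120 bp wide at the 14.1 percentile. Both control peaks of RPL23A were 180 bp wide, at the 12.6 and 8.71 percentiles. Low width and rank were thus not particular to the peaks of a single list. All 6 peaks stood low in their list by p-value, where the largest value listed was 1.00e-05 in both lists. The methods name a looser cutoff, so this value may not be the threshold of calling.

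Start peaks of members were matched between the lists about as often as those of other genes. A peak of the other list overlapped 23 of the 27 control peaks (85.2%, against 83.9% of start peaks of other genes) and 24 of the 26 PDS peaks (92.3%, against 88.0%). RPL22, whose paralog RPL22L1 can replace it in the ribosome, was the member with start peaks in both lists that were not matched one to one. A control peak of 1380 bp, chr1:6268681-6270060, was listed where the PDS list had a peak of 350 bp at 574 bp and a peak of 800 bp at -201 bp. The control peak held 3 G4 motifs. Of these, the motif at 170 bp lay in the PDS peak around the start, the motif at 336 bp lay between the PDS peaks, and the motif at 738 bp crossed the edge of the smaller PDS peak.

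G4 motifs made up a smaller share in start peaks of members than in those of other genes, with few peaks behind the share. They were found in 5 of 27 control peaks (18.5%, against 35.6%) and 7 of 26 PDS peaks (26.9%, against 33.8%). RPL10A, RPL22, RPL6, RPL7 and RPS26 carried a motif in both lists. The peaks of RPL22, RPL6 and RPL7 were at the outermost annotated start and not within 1 kb of the canonical start. RPL5 and RPL38 carried a motif in the PDS list alone. The RPL5 motif, at -382 bp, lay outside the narrower control peak, and the RPL38 motif, at -831 bp, crossed its upstream edge. The number of motifs counted therefore moved with the width of the peaks, and in the fixed 200 bp at the peak centre the counts were 4 (14.8%, against 21.0%) and 3 (11.5%, against 19.9%). The median GC content of these 200 bp was 64.5% in control and 61.8% in PDS peaks of members, against 67.0% and 65.0% in other genes.

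The CTCF consensus was as rare in start peaks of members as in other start peaks. In the central 200 bp it occurred without a mismatch in 1 peak of each list, that of RPLP0 (3.70% and 3.85%, against 5.10% and 4.67%). With 1 mismatch allowed it occurred in 7 control peaks (25.9%, against 30.4%) and 6 PDS peaks (23.1%, against 28.8%). Over the whole peak it occurred without a mismatch in 2 peaks of each list, those of RPLP0 and RPL5 (7.41% and 7.69%, against 7.31% and 7.55%). A match or its absence describes the letters of the window only.

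The promoters of ribosomal protein genes, from 500 bp before to 500 bp after the start, had a narrow range of base composition. Their median GC content was 57.7% with quartiles of 55.0 and 62.6%, against 59.3% with quartiles of 51.5 and 65.8% in other coding genes. Their median ratio of observed to expected CpG was 0.80, against 0.69. A G4 motif lay in 31 of the 73 promoters (42.5%, against 54.8%) and the CTCF consensus without a mismatch in 4 (5.48%, against 2.73%). Among other coding genes the share with a start peak in control cells was 6.41% in the lowest and 33.6% in the highest of 5 equal classes of promoter GC. In the class from 49.2 to 56.6% GC, which held more members than any other, 11 of 29 members had a control start peak (37.9%, against 16.0% of other genes) and 9 of 29 a PDS start peak (31.0%, against 15.9%). In the class from 56.6 to 61.7% GC, 8 of 21 members had a start peak in each list (38.1%, against 22.1% and 21.7%). In the class from 61.7 to 67.4% GC the order was reversed, with 3 of 12 (25.0%, against 28.5%) and 2 of 12 (16.7%, against 26.1%). In the lowest class, 1 of 4 members had a start peak in each list (25.0%, against 6.41% and 6.07%). In the highest class, 3 of 7 members had a control start peak (42.9%, against 33.6%) and 4 of 7 a PDS start peak (57.1%, against 30.8%).

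The pyrimidine hexamer hardly divided the members by their peaks. A start peak was listed at 15 of the 40 members with the hexamer in control cells (37.5%) and 14 in PDS-treated cells (35.0%), and at 11 (33.3%) and 10 (30.3%) of the 33 members without it. Among other coding genes the share was 17.4% with and 21.9% without the hexamer in control cells, and 16.7% and 20.6% in PDS-treated cells. The snoRNA hosts made up 27 of the 73 members (37.0%, against 1.94% of other coding genes), and 8 of these 27 had a start peak in each list (29.6%, against 22.4% and 24.0% of other snoRNA hosts). Of the 46 members without a snoRNA, 18 had a start peak in control cells (39.1%, against 21.4% of other genes) and 16 in PDS-treated cells (34.8%, against 20.1%).

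A divergent coding gene, which starts on the other strand within 1 kb upstream and points away, accompanied 10 members (13.7%, against 8.59% of other coding genes). Of these, 1 had a start peak in control cells, RPL35, and 2 in PDS-treated cells, RPL35 and RPL9. Of the 63 members without such a neighbour, 25 had a start peak in control cells (39.7%) and 22 in PDS-treated cells (34.9%). Other coding genes with such a neighbour had a start peak in 30.4% (control) and 29.2% (PDS) of cases, against 20.5% and 19.3% without it. With only 10 members in this class, the order among members rests on 1 and 2 genes. RPL35, whose protein sits at the tunnel exit, shares its upstream region with ARPC5L. RPL9 shares its upstream region with LIAS, whose start was 852 bp from the centre of the PDS peak, against 925 bp for RPL9. The control peak of RPS28 was centred 2 bp from the start of NDUFA7, a respiratory chain subunit gene on the other strand, and 219 bp from that of RPS28. NDUFA7 starts downstream of the outermost RPS28 start and overlaps it, so it was not counted as divergent. It starts upstream of the canonical RPS28 start, from which the peak was centred at -119 bp. Divergent genes were not counted from canonical starts. At RPS10 the readthrough gene RPS10-NUDT3 starts 103 bp from the peak centre, so this peak cannot be told apart between the 2 annotations.

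Several start peaks, strong ones among them, also lay nearer to the start of a noncoding gene than to that of the member. The RPLP0 peak was centred 74 bp (control) and 124 bp (PDS) from the start of PXN-AS1, against 113 and 163 bp from that of RPLP0. The RPS20 peak was centred 100 and 200 bp from the start of CERNA3, against 182 and 282 bp. The RPL26 peak was centred 169 and 109 bp from the start of an unnamed long noncoding RNA gene, against 310 and 370 bp. Such a gene also started 190 bp from the RPS26 peak in both lists, against 266 bp. At RPL27 a Y RNA gene started 14 and 77 bp from the centre, against 280 and 190 bp, and at the inner peak of RPL23A SNORD42B started 283 and 308 bp from it, against 848 and 873 bp. These peaks were assigned by distance to the member, and to which of the neighbouring starts they belong was not tested.

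Peaks elsewhere in the gene, more than 1 kb from its start, were found at 16 members in control cells (21.9%, interval 14.0 to 32.7, against 42.6%) and 15 in PDS-treated cells (20.5%, interval 12.9 to 31.2, against 39.2%). Ribosomal protein genes are short, with a median length of 5330 bp against 27779 bp. Per length of gene beyond the start window, members held 3.85 such peaks per 100 kb in control cells, against 1.33, and 3.05 in PDS-treated cells, against 1.30. Among genes longer than 15 kb, 12 of 13 members had such a peak in control cells (92.3%, against 56.0%) and 11 of 13 in PDS-treated cells (84.6%, against 51.0%). Among shorter genes, 4 of 60 members had such a peak in each list (6.67%, against 17.0% and 16.7%). Most members of this kind were thus among the 13 with the longest annotation. In control cells, peaks of RPL36, RPS29, RPL6 and RPL22 counted here lay upstream of the canonical start, the nearest at -25 bp in RPL36. Those of the other members lay downstream of it. The density and these shares were not recomputed from the canonical start.

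RPL36 held the strongest of these peaks in the control list, and RPL22 in the PDS list. At chr19:5690041-5690520 the control list had a 101-fold peak (rank 234), overlapped in the PDS list by a 24.7-fold peak (rank 6099) at chr19:5689951-5690500. Its centre was 15323 bp from the outermost annotated start but only -25 bp from the start of the canonical transcript, and -80 bp for the PDS peak. RPL36 had a further peak in an intron at chr19:5687101-5687520, with 73.1-fold (rank 998) in control and 24.4-fold (rank 6332) in PDS-treated cells. RPL22 had an intronic peak with 2 G4 motifs at chr1:6264901-6265800, with 89.8-fold (rank 427) in control cells. The overlapping PDS peak at chr1:6264901-6265650 had 56.4-fold (rank 137), and both lay more than 5 kb upstream of the canonical start. RPL22 also had a peak over its last exon in both lists, at 38.1-fold and 26.5-fold.

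Other peaks inside members ranged widely in rank. RPS24 had an intronic peak in both lists (46.9-fold, at the 85.9 percentile, in control and 30.1-fold, at the 90.9 percentile, in PDS-treated cells). The consensus lay in the central 200 bp of its PDS peak, a stretch that was inside the control peak but not at the centre of that peak. RPS29 had a peak at 46.0-fold and 20.1-fold, -612 and -402 bp from the canonical start. RPS9, which lines the mRNA entry channel with RPS3, had a peak at 44.9-fold and 26.6-fold, which carried the consensus in both lists. RPL13A, known for silencing inflammatory mRNAs when released from the ribosome, had a peak over an exon and the snoRNA gene SNORD32A at 44.7-fold (84.0 percentile) and 30.5-fold (91.4 percentile). RPS3 had an intronic peak at 41.4-fold and 16.5-fold, in a gene whose start peak was listed in control cells alone. RPSA had an intronic peak at 40.5-fold and 25.6-fold, beside its start peak. RPL4, which lines the peptide tunnel, had control peaks of 39.6-fold and 33.1-fold and a PDS peak of 18.7-fold that overlapped the weaker control peak. The stronger control peak was overlapped by another PDS peak, which was centred outside the gene and so was not counted. RPL6 had a peak of 37.6-fold (75.4 percentile) in control and 7.77-fold (5.98 percentile) in PDS-treated cells. RPL3, RPL27A, RPL31, RPL37A and RPL38 also had a peak elsewhere in both lists, and RPL30 had one in the control list alone. A control peak of RPL3 and a control peak of RPL31 carried the consensus in the central 200 bp. Those stretches also lay inside the overlapping PDS peaks, whose own central 200 bp did not hold the consensus.

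**Figure D5:**
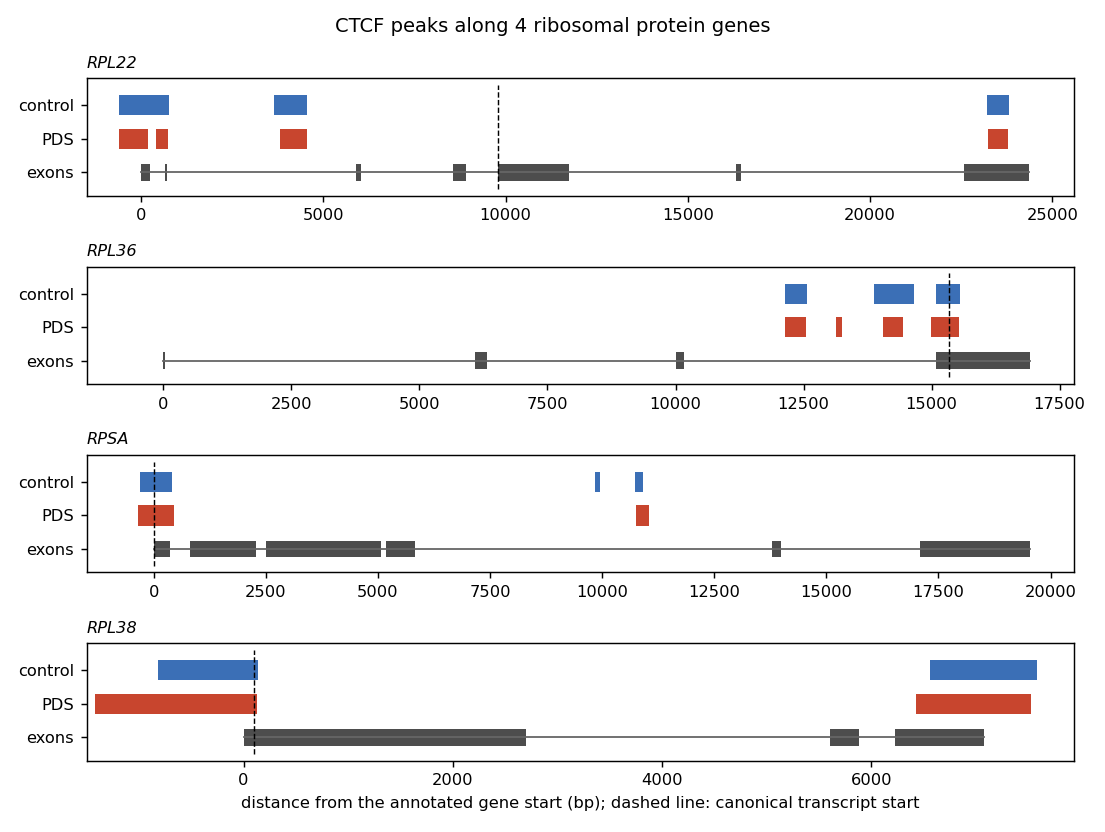
CTCF peaks of control (blue) and PDS-treated cells (red) along RPL22, RPL36, RPSA and RPL38, by distance from the annotated gene start in bp (x axis), with annotated exons in grey and the canonical transcript start as a dashed line. In RPL36 the peaks of both lists lie over the canonical start, 15348 bp inside the annotation, and in RPL22 the canonical start lies 9794 bp inside the annotation, away from the peaks at the annotated start.

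The choice of start changed for few members whether a start peak was listed. The canonical start was more than 100 bp from the outermost annotated start at 20 of the 73 genes and more than 1 kb away at 6, RPL22, RPL36, RPL4, RPL6, RPL7 and RPS29. With the canonical start, 25 members had a start peak in control cells (34.2%, against 21.9% of other genes) and 23 in PDS-treated cells (31.5%, against 20.6%). RPL36 and RPS29 were gained in both lists, and RPL22, RPL6 and RPL7 were lost in both. The genes lost were among those with a G4 motif in a start peak of both lists.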

How the data were processed

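CTCF ChIP-seq peaks of K562 cells were analysed. The authors aligned reads to hg19 with Bowtie2 2.2.3, used SAMtools to discard duplicate, non-unique and poorly mapped reads, and called peaks with PePr on both CTCF replicates of a condition over IgG; deepTools 2.0 is also named in the submitters' processing notes. The score deposited with each peak is its fold scaled by the authors and was not used. The fold enrichment over IgG was computed by the authors and ranked peaks within a list. The p-value deposited by the authors, a PePr value, gave the second order; the adjusted p-value was not used. Read depth is not given in the lists. The labels describe single-end reads and the methods paired-end reads.

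Genes, starts and canonical transcripts came from GENCODE 44 lifted to GRCh37. An exon is that of any annotated transcript of the gene. Peaks were tied to a start by their centre within 1 kb and paired between lists by an overlap of at least 1 bp. G4 motifs, the CTCF consensus and pyrimidine hexamers were searched in the GRCh37 reference sequence, from which the printed sequences were read. The consensus restricts 11 of 15 positions, some of them to a choice of bases rather than a single base. Values were given for the 8 members with the highest start-peak fold in each list, for start peaks in a single list, for up to 10 members with a peak elsewhere, for up to 8 with a G4 motif or the consensus, and by name for members without a peak, except for items not reported here. Other genes named (among them RPL32, RPS14 and RPS19), the start regions and the RPL11 stretch printed, the sites with a mismatch, the 15 kb split and the canonical start were chosen after values were seen. The members and lists were chosen with earlier results of these data known. No test was made. Assignment and motif search were tested on simulated data. Computation used pandas 2.3.3, matplotlib 3.10.9, pyfaidx 0.9.0.4, scipy 1.17.1 and numpy 2.4.6 under Python 3.11.15. Alternatives covered the window, the rule, the start, the peaks used, the counterpart, the order and the motif.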

Additional observations from a re-analysis of the deposited data

How the results depend on the processing

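In all 10 other settings tried for the start peak (window, rule, peaks used, gene start and comparison genes), the share of ribosomal protein genes was higher than that of other coding genes in both lists. Of 70 values recomputed, 46 stayed within 1.5 times the reported count, or within 5 percentile points of the reported median, and 24 did not. The median percentile of the start peaks of members, 64.4 in control and 76.6 in PDS-treated cells by fold, became 85.9 and 86.5 by p-value and 61.2 and 67.8 by width. With a window of 5 kb, 41 members had a peak in control cells (56.2%, against 6902 other genes or 36.0%), 37 in PDS-treated cells (50.7%, against 6573 or 34.3%) and 35 in both (47.9%, against 32.2%). With the start itself covered, the counts were 13, 12 and 12 (17.8, 16.4 and 16.4%), against 1783, 1582 and 1424 for other genes (9.31, 8.26 and 7.43%). With the 50% of peaks of smallest p-value, 2485 other genes had a control start peak. With the 50% of highest fold, the counts of other genes were 2476 and 1729, and the both-list count of members was 16 (21.9%, against 7.24%). G4 motifs with loops up to 12 nt lay in 9 control peaks of members (33.3%, against 52.4% of start peaks of other genes) and 11 PDS peaks (42.3%, against 50.4%). In 1000 bp at the centre they lay in 9 control peaks (33.3%, against 63.7%) and 10 PDS peaks (38.5%, against 61.6%), and in 200 bp in 3 PDS peaks (11.5%, against 19.9%). The consensus occurred in 7 and 6 peaks with 1 mismatch (25.9 and 23.1%, against 30.4 and 28.8%) and in 2 and 2 over the whole peak (7.41 and 7.69%, against 7.31 and 7.55%). For these counts the alternative's own construction, a wider or narrower window, fewer peaks or a looser motif, changes the number of matches. The canonical start and the tolerance of 5 percentile points were chosen after seeing the data. No paired analysis was possible because the replicates of a condition were merged into a single peak call, and for the same reason no replicate could be left out. The depth of the samples is unknown, and the control list rests on 1 IgG sample and the PDS list on 2 among the samples analysed here.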

Other observations

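Ribosomal protein genes of the X chromosome lay outside the rule that chose the members. RPL36A had a start peak in both lists, 63.4-fold (rank 1769) in control and 27.1-fold (rank 4455) in PDS-treated cells. RPL39 had a narrow start peak of 180 bp in the control list alone, at 20.9-fold (rank 22646). RPL10 had no start peak and 1 peak elsewhere in the gene in each list.

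Processed copies of ribosomal protein genes are numerous in the genome. Of 1491 annotated ribosomal protein pseudogenes, 15 had a peak over them in control cells (1.01%) and 18 in PDS-treated cells (1.21%). Among 12590 other pseudogenes the shares were 3.03% and 3.15%. The ribosomal protein pseudogenes were shorter, with a median length of 477 bp against 713 bp, and reads that map to several copies were removed by the authors' mapping filter, so the part of either in this difference was not tested.

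Among related genes, several start peaks stood near the top of both lists by fold. NOP10, a protein of snoRNA particles, had 69.9-fold (rank 49) in PDS-treated and 91.2-fold (rank 396) in control cells. RRP9, a protein of the particle that cleaves precursor ribosomal RNA, had 75.0-fold (rank 35) and 122-fold (rank 93). MRPL17, of the mitochondrial large subunit, had 42.3-fold (rank 655) and 105-fold (rank 205).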
